A study of Oryza sativa Japonica Group with 18 samples.

Results

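On rice root arrays, 157 of 57258 probe sets had lower signal in both a gi knockout and a pho2 knockout than in wild type (WT). They were chosen by those root values. A probe set was kept where its mean log2(signal + 16) lay at least 0.8 below the WT mean in gi root and in pho2 root, where all 6 mutant arrays lay below all 3 WT arrays, and where the mean WT root signal was at least 100 units. The root differences below are therefore descriptions and carry no test, while the shoot arrays, which the rule did not use, were tested. Both knockouts and WT are labelled as Nipponbare, a japonica cultivar, and were sampled as 3 arrays in each of 6 groups: gi root (OsGIGANTEA KO), pho2 root (OsPHO2 KO), WT root, gi shoot, pho2 shoot and WT shoot. Seed was germinated for 2 days and the seedlings were grown for 19 days, to an age of 21 days, in a hydroponic medium with sufficient phosphate (Pi) under a 12 h photoperiod. Signals are MAS5 values of Affymetrix rice arrays, in arbitrary units on a linear scale, and a probe set is the group of probes that measures a transcript. The labels do not say how the knockouts were made, how many lines stand for a genotype, or whether the 3 arrays of a group came from separate plants, so the p-values speak of the scatter among these arrays alone, and that scatter may be technical.

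GIGANTEA (GI) works with the circadian clock and helps to set when plants flower. PHO2 conjugates ubiquitin to other proteins and so limits how much Pi the root takes up and passes to the shoot. Among the named genes of the set are actin-depolymerizing factors (ADF), which sever and turn over actin filaments and serve polarized growth of plant cells, and non-symbiotic haemoglobins (NSHB, also called phytoglobins), which bind oxygen tightly and take part in the turnover of nitric oxide. Others make glutamate from glutamine (GLT2), act on auxin conjugates (ILL3) and gibberellin (GA20ox2), or build and cut cell wall glucans (CSLF2, GLU6).

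Of the 157 probe sets, 81 had 1 gene in the annotation tables, covering 76 different genes, and 76 had none. Only 16 of the genes carry a name other than a locus number. Of the probe sets with a WT root signal of at least 100 units, 24451 in all, 68.9% had 1 gene, against 51.6% of the 157. Those with the prefix OsAffx made up 36.9% of the 157 and 15.8% of the 24451. Probe sets with the endings _x_at (22), _s_at (17) or _a_at (4) can share probes with related or alternative transcripts, and what they measure cannot be assigned to a single transcript.

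The GI probe set matched the gi label, with a root signal of 1.36, 1.71 and 2.19 on the gi arrays, 8200, 8030.1 and 7920.1 on the pho2 arrays and 7236, 7007 and 7393 on the WT arrays. PHO2 was not analysed here, so the pho2 label was not checked in this way. Tissue labels matched their markers: the summed signal of 11 root markers was 41323 to 44334 in gi root, 46175 to 50639 in pho2 root and 41808 to 45652 in WT root, against 1899 to 3320 over the shoot arrays. The summed signal of 9 green tissue markers was 12906 to 17205 in gi root, 9437 to 14487 in pho2 root and 9085 to 9363 in WT root, with 2 of the 9 genes under 20 units in each root group, and lay between 136201 and 202848 in shoots. The log2 ratio of 3′ to 5′ signal of the actin control, often read as a sign of RNA integrity, averaged 2.96 on the gi arrays (SD 0.061, n = 3), 3.31 on the pho2 arrays (SD 0.26, n = 3) and 2.59 on the WT arrays of root (SD 0.36, n = 3). In shoot it averaged 5.30 in gi, 5.30 in pho2 and 5.08 in WT. Among other controls of the maker, DapX had the same order in root, at 1.82 in gi, 1.99 in pho2 and 1.63 in WT. ThrX did not, at 1.94, 2.21 and 2.09. What sets these ratios was not tested. Green tissue markers and the actin ratio thus moved with the genotype in root, and their part in the root differences was not tested. In bulk samples, fewer cells of a type and less RNA per cell cannot be told apart.

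Median signal over the set was 160.5 units in gi root, 126.6 in pho2 root and 386.1 in WT root. On the log2(signal + 16) scale, the difference from WT had a median of -1.24 in gi root, spanning -3.76 to -0.80, and a median of -1.504 in pho2 root, spanning -4.08 to -0.80. Over all probe sets the medians were 0.03 for gi and 0.02 for pho2. Differences of -1 or lower were reached by 119 of the 157 in gi root and 132 in pho2 root, and those of -2 or lower by 12 in gi root and 52 in pho2 root. Both comparisons share the WT arrays. By array, the median of the set relative to the WT mean was -1.26, -1.04 and -1.30 in gi root, -1.68, -1.27 and -1.47 in pho2 root and 0.07, 0.02 and -0.10 in WT root. Every mutant root array was thus low, and replicate 1 of pho2 root was the lowest of the 9. That array was also the lowest of the 3 pho2 root arrays for 93 of the 157 probe sets, against 31 for replicate 2 and 33 for replicate 3. It was the dimmest of the 3 over the whole array too, with a median signal of 54.0, against 60.3 for replicate 2 and 63.1 for replicate 3. The share over all probe sets was not worked out, so the count of 93 has no background.

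**Figure D1:**
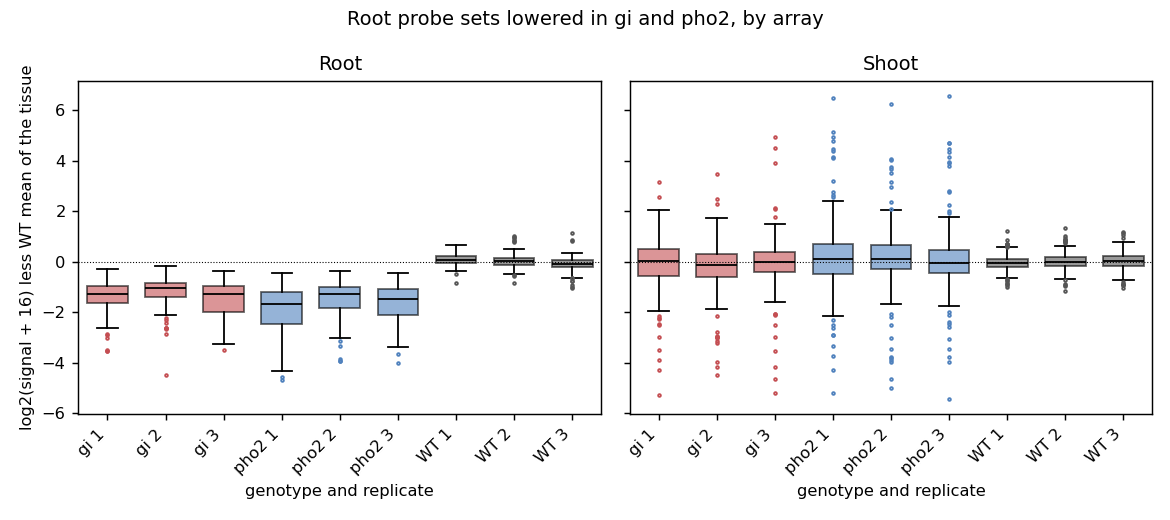
Boxes show the 157 probe sets on each array, as log2(signal + 16) less the WT mean of the tissue, with root on the left and shoot on the right (median, quartiles, whiskers to 1.5 times the quartile range, points beyond). The root medians of both mutants lie between -1.68 and -1.04, whereas in shoot the boxes of all genotypes straddle 0 and single probe sets lie far above or below it.

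Values near the threshold of -0.8 show no gap. The 3 just inside it in gi root were LOC4338911 (-0.804), LOC4352329 (-0.804) and LOC4324276 (-0.807), and the 3 just outside it were at -0.793, -0.785 and -0.783, the last being PIP2;5, an aquaporin. In pho2 root the 3 just inside were at -0.804, -0.805 (LOC4332241) and -0.809 (LOC4335987), and the 3 just outside at -0.791, -0.784 and -0.782 (LOC4331329). Membership in the set is thus a matter of where the limit was placed.

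Probe set Os.4808.1.S1_at, which has no gene in the tables, had the lowest mean of both root differences. Its root signal was 24.8, 5.37 and 35.1 on the gi arrays and 23.8, 16.8 and 21.6 on the pho2 arrays, against 448, 494 and 452 on the WT arrays. All 6 mutant arrays were dim, with mean differences of -3.76 and -3.71. OsAffx.10949.1.S1_x_at was similar, at 12.5, 102 and 13.3 in gi root and 6.85, 81.8 and 16.005 in pho2 root, against 311, 345 and 304 in WT root. LOC4326093 followed, at 24.998, 32.4 and 49.996 in gi root and 21.3, 13.5 and 28.1 in pho2 root, against 346, 184 and 343 in WT root. In all 3 the mutants lay far below the lowest WT array. Os.20602.2.S1_x_at kept a measurable level in the mutants, with 100.2, 122 and 95.6 in gi root and 146, 114 and 117 in pho2 root, against 725, 1182 and 713 in WT root. Os.49030.1.A1_s_at, Os.25263.1.S1_at and OsAffx.23143.1.S1_x_at had mean differences of -2.45, -2.84 and -2.35 in gi root and -2.88, -2.40 and -2.37 in pho2 root. The WT arrays of the first were uneven, at 249, 432 and 115.

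Other strong differences were unequal between the mutants. Os.14539.1.S1_at had 127, 167 and 237 in gi root and 3.63, 9.31 and 7.56 in pho2 root, against 351, 301 and 472 in WT root. Its gi arrays were intermediate and its pho2 arrays were all under 10 units. GLT2, an NADH-dependent glutamate synthase that passes the amide nitrogen of glutamine on to glutamate, had a root signal of 94.7, 138 and 107 in gi root and 0.916, 3.16 and 43.8 in pho2 root, against 334, 269 and 246 in WT root. The 3 groups did not overlap, with differences from WT of -1.21 in gi root and -3.47 in pho2 root. Over the whole set, the pho2 root mean was below the gi root mean for 115 probe sets and above it for 42. All 3 pho2 arrays lay below all 3 gi arrays for 19 probe sets, and all 3 gi arrays below all 3 pho2 arrays for 5. No share over all probe sets was worked out for pho2 root against gi root, so these counts have no background. The median difference of pho2 root from gi root was -0.25 over the set and -0.02 over all probe sets. Among the bright transcripts, LOC4344545 was lowest in pho2 root, with 759, 1887 and 1308, and had 5601, 4059 and 7501 in gi root and 11660.2, 10708 and 8648 in WT root.

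Actin-depolymerizing factors were the family with the most named genes in the set. ADF9 had a root signal of 165, 282 and 61.7 on the gi arrays and 18.7, 136 and 82.4 on the pho2 arrays, against 550.2, 495 and 498 on the WT arrays. ADF1 had 515, 678 and 239.7 in gi root and 113, 481 and 242 in pho2 root, against 1259, 1241 and 1059.5 in WT root. In both genes WT arrays were close together while replicates of each mutant were several-fold apart, with replicate 2 the highest and replicate 3 of gi and replicate 1 of pho2 the lowest. ADF6 showed the same order of arrays over a narrower span, with 120.3, 179 and 79.5 in gi root and 93.6, 136 and 130.1 in pho2 root, against 299, 289 and 301 in WT root. Differences from WT in gi root were -1.72 for ADF9, -1.40 for ADF1 and -1.19 for ADF6, and those in pho2 root were -2.72, -2.24 and -1.21. The other 6 ADF genes on the array, a list drawn up after values were seen, spanned -0.30 to 0.06 in gi root and -0.91 to 0.02 in pho2 root. In the limma fit of the 9 root arrays, 2 of these 6 were called lower in pho2 root (adjusted p under 0.05). In gi root 0 of them were called (1 lower unadjusted).

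The uneven replicates of ADF9 were shared by other members. For each probe set the deviations from its group means over the 9 root arrays were correlated with those of ADF9, a description over arrays that share hybridisation and scaling. Of the other 156 members, 22 (14.1%) had Pearson's r of at least 0.9 with ADF9, against 0.278% of the 24451 probe sets with WT root signal of at least 100, members included. Some of the 22 share a number in their names and may measure the same transcript, such as OsAffx.28900.1.S1_at and OsAffx.28900.1.S1_x_at. The limit of 0.9 was chosen after values were seen. Named genes among the 22 were ADF1 (r = 0.98), GLU6 (0.97) and ADF6 (0.91), while ILL3 lay just below the limit (0.89). GLU6, one of the GLU endoglucanases that cut cell wall glucans, had 796, 1493 and 325 in gi root and 141, 929 and 894 in pho2 root, against 2604, 2531 and 2429 in WT root. ILL3, an enzyme of the family that frees auxin from amino acid conjugates, had 703, 1743 and 477 in gi root and 65.8, 436 and 640.0 in pho2 root, against 2638, 1904 and 1761 in WT root. Again replicate 2 was highest in gi root, and replicate 1 stood far below the others in pho2 root. LOC4333425 (r = 0.96) had 335, 566 and 183 in gi root and 30.96, 292 and 190.2 in pho2 root, against 1150.1, 1231 and 954 in WT root. OsAffx.5542.1.S1_s_at (r = 0.99), among the 8 brightest of the set in WT root, had 1905, 3059.8 and 799.6 in gi root and 222, 1468 and 1048 in pho2 root, against 5108, 4263 and 4395 in WT root.

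Counting ADF9, these 23 probe sets had median differences of -1.51 in gi root and -2.35 in pho2 root, and the pho2 root mean was the lower one in all 23. Their median SD on the log2 scale was 0.783 over gi root arrays and 1.09 over pho2 root arrays, against 0.139 over WT root arrays. By array their median relative to the WT mean was -1.35, -0.80 and -2.43 in gi root, -3.85, -1.36 and -2.01 in pho2 root and 0.06, -0.04 and 0.02 in WT root. Without pho2 root replicate 1 the median pho2 difference was -1.55, and all 23 still met the rule. Without gi root replicate 3 the median gi difference was -1.14, and 19 of 23 did. Of the 23, 21 had a WT shoot signal under 50 units, and 10 had a gene in the tables. Among the probe sets outside the 157, 46 of those with WT root signal of at least 100 also followed ADF9 with r of at least 0.9, with median differences of -0.09 in gi root and -0.09 in pho2 root, where the rule had already taken out probe sets that were low enough in both mutants. Of these 46, 26 lay below WT in both mutants and 5 had a pho2 root difference of -0.8 or lower. The lowest in pho2 root were LOC4343461 (-1.47, with -0.65 in gi root) and LOC4326082 (-1.43, with -0.73 in gi root). LHCP, a chlorophyll-binding protein of green tissue (r = 0.92), was also among the 46 and lay above WT, with differences of 1.31 in gi root and 0.89 in pho2 root. None of the 9 green tissue markers reached 0.9 (r = -0.59 to 0.81), nor did any of the 11 root markers (r = -0.74 to 0.70). The part of green tissue in this profile was not tested.

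**Figure D2:**
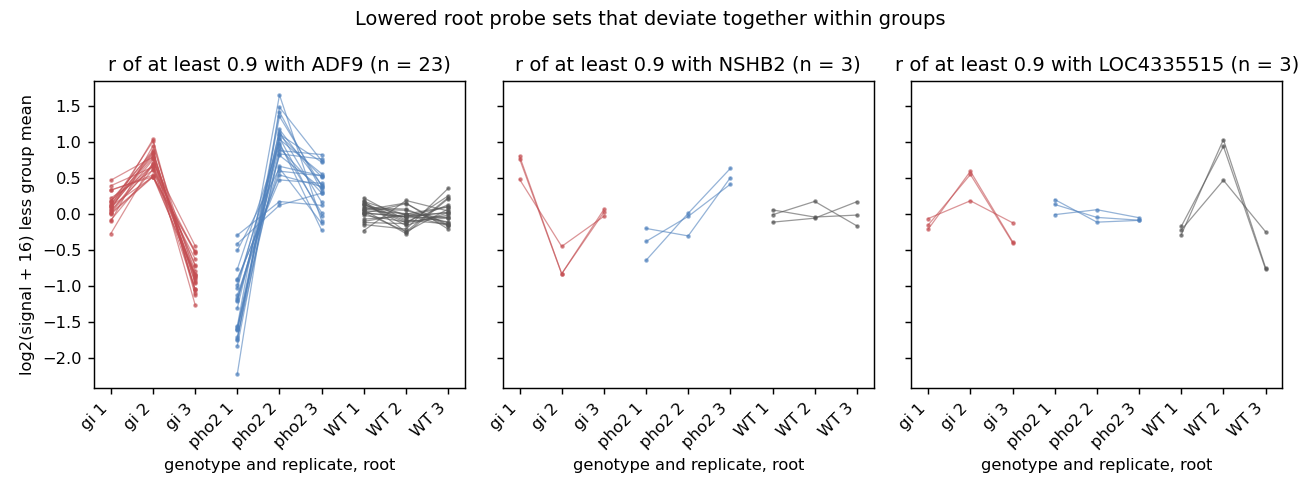
Lines show log2(signal + 16) less the group mean on the 9 root arrays for members with Pearson's r of at least 0.9 with ADF9 (left, 23 probe sets), NSHB2 (middle, 3) and LOC4335515 (right, 3), each counted with itself. The ADF9 panel shows wide, shared swings in gi and pho2 and nearly flat WT arrays, with median SDs of 0.783, 1.09 and 0.139 in gi, pho2 and WT root.

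The haemoglobins had another array profile. NSHB2 had a root signal of 2038, 645 and 1179 in gi root and 506, 807 and 1252 in pho2 root, against 3509.9, 3995 and 3151 in WT root. NSHB1, by the probe set Os.12191.1.S1_s_at, had 3554, 1851 and 2480.2 in gi root and 1089.8, 1392 and 1904 in pho2 root, against 5776, 6002 and 7039.9 in WT root. Here replicate 1 was the highest gi array and the lowest pho2 array in both genes, and their deviations correlated at 0.93, against 0.11 and 0.14 with ADF9. Another NSHB1 probe set, Os.12191.1.S1_x_at, was the brightest of the set in WT root and had 8159.7, 5096 and 6197 in gi root and 3143, 3354 and 4454 in pho2 root, against 10962, 10819 and 12385 in WT root. NSHB1 and NSHB2 are close paralogs, and probe sets of the _s_at and _x_at kind may read both. The third haemoglobin gene on the array, GLB1, was not in the set and had differences of 0.12 in gi root and 0.30 in pho2 root. In the root fit GLB1 was called higher in pho2 root.

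Among members with a gene name, 3 were hormone genes. GA20ox2, the gibberellin oxidase known in rice as the semi-dwarf gene SD1, had 63.1, 58.3 and 64.9 in gi root and 54.2, 66.3 and 65.1 in pho2 root, against 227, 146 and 203 in WT root. The 6 mutant arrays lay within a narrow band, and the differences were nearly equal, at -1.39 in gi root and -1.40 in pho2 root. GA20ox3, its paralog, had -0.36 in gi root and -0.11 in pho2 root. In the root fit GA20ox3 was called lower in gi root and was not called in pho2 root. BU1, a helix-loop-helix protein that acts in brassinosteroid responses of rice, had 19.5, 31.9 and 61.6 in gi root and 14.97, 44.3 and 20.4 in pho2 root, against 151, 137 and 101 in WT root. ILL3, given above, is the third. Of its 6 relatives, chosen as a list after values were seen, the gi differences spanned -0.24 to 0.19 and the pho2 differences -1.67 to 0.13, the lowest being the dim ILL8. In the root fit, 1 of these 6 was called lower in pho2 root.

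CSLF2, a synthase of the mixed-linkage glucans of grass cell walls, had 16.5, 30.2 and 69.8 in gi root and 31.2, 56.97 and 61.9 in pho2 root, against 212, 115 and 115 in WT root. Its 3 relatives on the array spanned -0.57 to 0.28 in gi root and -1.03 to -0.23 in pho2 root, with CSLF8 the lowest of them in both. In the root fit, 1 of these 3 was called lower in pho2 root. PPDK2, a pyruvate phosphate dikinase, which regenerates phosphoenolpyruvate, had 348, 763 and 976 in gi root and 446, 992 and 568 in pho2 root, against 2434, 2235 and 1293 in WT root. Replicates of PPDK2 were uneven in every group, and the highest pho2 array came within 1.5 times of the lowest WT array. Its paralog PPDK1 had differences of -0.56 in gi root and -0.50 in pho2 root. Pir7b, an esterase, had 791, 946 and 696 in gi root and 692, 1004 and 581 in pho2 root, against 1353, 2794 and 1160.5 in WT root, where replicate 2 stood above the others. STLP3 had 161, 147 and 149.6 in gi root and 236, 130.4 and 104 in pho2 root, against 347, 366 and 274 in WT root.

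**Figure D3:**
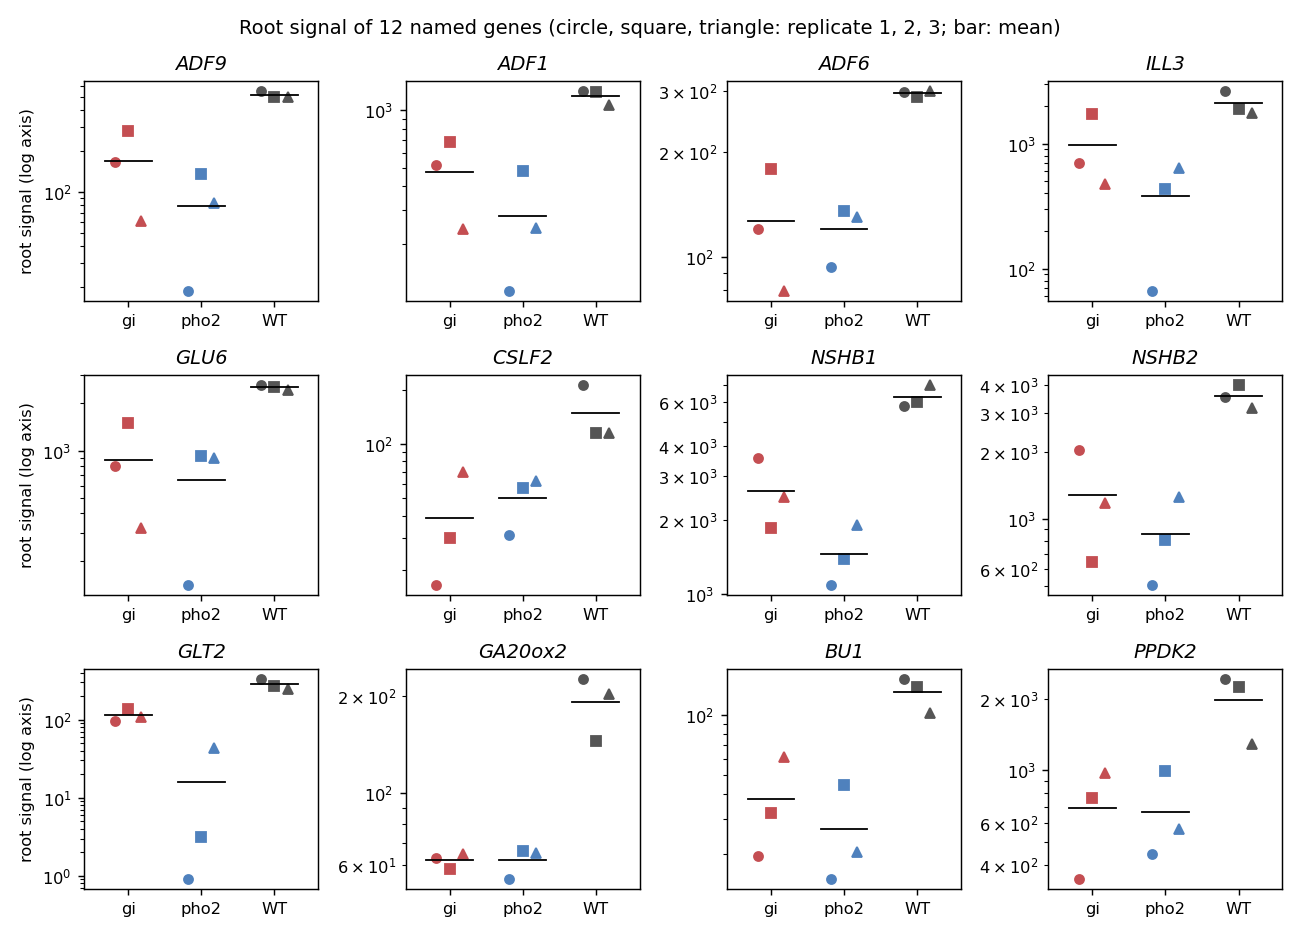
Root signal of 12 named genes on a log axis, 1 panel per gene, with gi, pho2 and WT from left to right, symbols for replicates 1 to 3 and a bar for the mean. All mutant points lie below all WT points, as the rule requires, and ADF9, ADF1, ILL3 and GLU6 show the same low pho2 circle (replicate 1), whereas the GA20ox2 mutant points lie close together.

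The 8 brightest members in WT root were led by NSHB1 (Os.12191.1.S1_x_at) and LOC4344545. LOC4324398 had 2112, 2139 and 2916 in gi root and 1854, 2109.8 and 1877 in pho2 root, against 6859, 6422 and 5756 in WT root. OsAffx.1892.1.S1_x_at had 2341, 1837 and 2949 in gi root and 3089, 2959 and 2384 in pho2 root, against 6039, 5403 and 4434 in WT root. Both remained bright in the mutants. Replicates of LOC4329900 were close together, with 1368, 1426 and 1461 in gi root and 1496, 1449 and 1379 in pho2 root, against 3141, 2959.9 and 2896 in WT root. LOC4330867 had 1199.7, 1317 and 1902 in gi root and 1266, 1811 and 1783 in pho2 root, against 3686, 3952 and 2741 in WT root.

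For genes with several probe sets, a member did not always speak for its gene. Of the 76 genes, 56 had 1 probe set and 20 had several, and in 2 of these 20, LOC4324276 and LOC4340438, all probe sets were members. The other probe sets of the 20 genes numbered 23, of which 12 lay below WT in both root comparisons and 6 had a WT root signal under 100. The 12 were counted by sign alone, and some lay close to WT or were dim. That of LOC4352242 differed by -0.05 in gi root and -0.06 in pho2 root, and that of LOC4329840 had a WT root mean of 5.72. The share of all probe sets below WT in both was not worked out. PHT1;1, a Pi transporter of the plasma membrane, entered the set by the dim probe set Os.12092.1.S1_at, with 56.4, 90.9 and 49.3 in gi root and 64.5, 89.1 and 54.5 in pho2 root, against 128, 128 and 153 in WT root. Its bright probe set averaged 2636 in gi root, 4646 in pho2 root and 2320.2 in WT root, so that both mutant means lay above WT. The translation initiation factor eIF-4G has 4 probe sets. Its member had 350.4, 329 and 359 in gi root and 382, 475 and 475 in pho2 root, against 970.4, 874 and 848 in WT root, another lay below WT (-0.64 in gi root, -0.73 in pho2 root), and the remaining 2 lay within 0.14 of WT in both. LOC4328841 and LOC4341466 also had probe sets above WT in both mutants. By contrast, the third NSHB1 probe set had -0.67 in gi root and -1.49 in pho2 root, and the other probe set of LOC4349339 had -0.58 and -1.21 in the same order. Here the probe sets of a gene agree in direction, and the gi difference alone falls short of the rule.

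**Figure D4:**
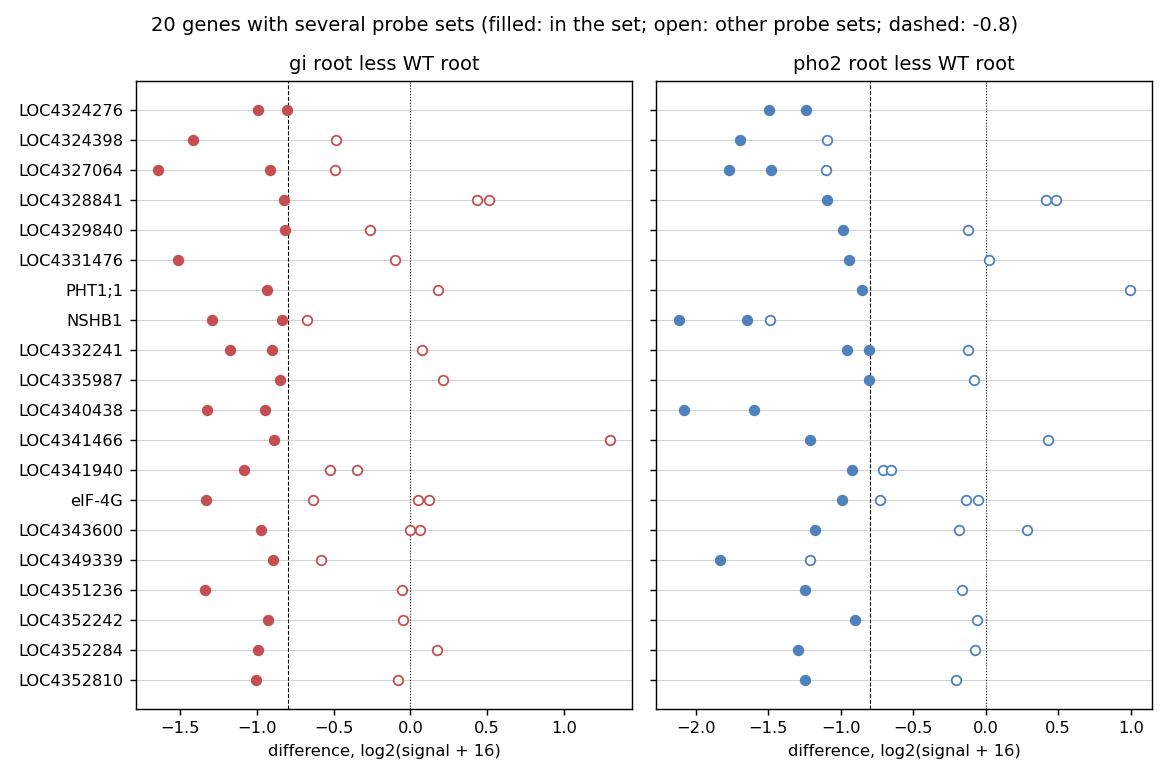
Differences of each probe set from WT root on the log2(signal + 16) scale, for the 20 genes with several probe sets, gi on the left and pho2 on the right. Filled points are among the 157 and open points are other probe sets of the same gene, of which 12 of 23 lie below 0 in both panels, some of them close to 0, while PHT1;1 reaches 0.99 in pho2.

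In shoot, the transcripts were mostly dim. The median signal over the set was 46.1 in gi shoot, 61.3 in pho2 shoot and 41.5 in WT shoot, and WT root exceeded WT shoot by a median of 2.53 on the log2(signal + 16) scale. A WT shoot signal under 50 units was found for 83 of the 157 (52.9%), against 12.8% of all probe sets with a WT root signal of at least 100. WT shoot was brighter than WT root for 26 of them. Because dim probe sets were left out of the test, 94 of the 157 entered the fit of the 9 shoot arrays in limma, with 34355 probe sets in all. A call is an adjusted p under 0.05.

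Calls in shoot went both ways, and shares of the 157 are given although only 94 of them were tested. In gi shoot 17 members were called lower (10.8% of the 157) and 4 were called higher (2.55%), against 8.56% lower and 8.98% higher among all probe sets tested. In pho2 shoot 18 were called lower (11.5%) and 20 were called higher (12.7%), against 14.2% lower and 14.4% higher. The 63 untested members count in the first shares and not in the background, so the shares are not on the same base. Both comparisons share the WT shoot arrays. The median shoot difference over the set was -0.01 in gi and 0.10 in pho2, beside 0.00 and -0.01 over all probe sets. Where a change of at least 4-fold was also asked, a limit chosen after values were seen, 9 members were lower in gi shoot (5.73%, against 0.21% of those tested) and 2 were higher (1.27%, against 0.966%). In pho2 shoot 10 were lower by that measure (6.37%, against 0.3%) and 12 were higher (7.64%, against 1.84%). With no filter, so that all 157 were tested, gi shoot had 14 called lower (8.92%, against 4.3% of all probe sets) and 4 called higher (2.55%, against 4.76%). By that fit pho2 shoot had 16 called lower (10.2%, against 7.67%) and 19 called higher (12.1%, against 7.9%). All 3 gi shoot arrays lay below all WT shoot arrays for 23 members (14.6%, against 12.7% of all probe sets) and above them for 16 (10.2%, against 12.5%). The pho2 shoot arrays lay wholly below for 25 (15.9%, against 15.6%) and wholly above for 31 (19.7%, against 15.2%). Among probe sets with a WT root signal of at least 100 units, a limit that all members met, these shares were 21.3% below and 17.9% above in gi shoot. In pho2 shoot they were 24.9% below and 25.1% above. Each was higher than that of the members, but shoot signal was not matched. In WT shoot 12.8% of that group were under 50 units, against 52.9% of the members.

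**Figure D5:**
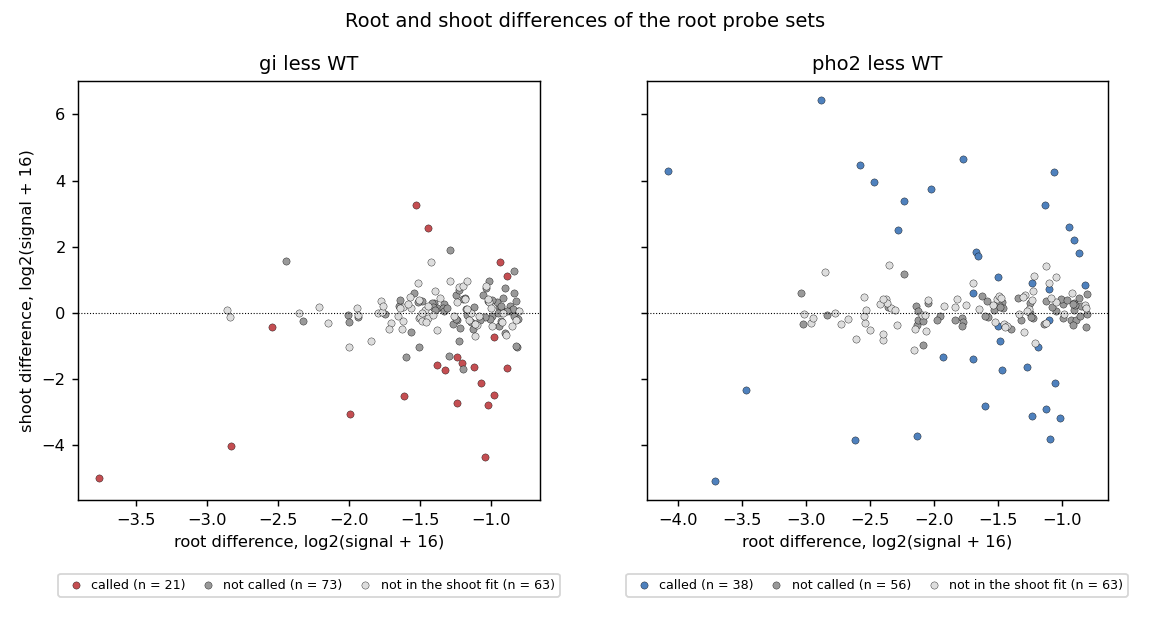
Root difference (horizontal) and shoot difference (vertical) from WT for the 157 probe sets, gi on the left and pho2 on the right, both as log2(signal + 16). Coloured points were called in shoot (21 in gi, 38 in pho2), grey points were not called and pale points were not in the shoot fit, and the called points lie both below and above 0.

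Several members that were low in the mutant roots were also low in the mutant shoots. Os.4808.1.S1_at had a shoot signal of 5.70, 22.1 and 7.11 in gi and 7.32, 18.3 and 3.74 in pho2, against 828, 808 and 876 in WT. It fell in both mutants (in gi shoot log2 change -4.99, SE 0.33, limma adjusted p = 2.25e-06, in pho2 shoot log2 change -5.09, SE 0.33, limma adjusted p = 1.05e-06). Os.20602.2.S1_x_at had 106, 98.99 and 83.97 in gi shoot and 121, 99.4 and 117 in pho2 shoot, against 1697, 1536 and 2281 in WT shoot, and fell by 4.03 on the log2 scale in gi and by 3.83 in pho2 (limma adjusted p = 7.5e-08 and 8.01e-08). In both probe sets the 3 WT arrays were at least 12 times any mutant array. OsAffx.15787.2.S1_s_at had 175, 145 and 174 in gi shoot and 132, 86.7 and 80.7 in pho2 shoot, against 1568, 1437 and 1481 in WT shoot, and fell by 3.07 in gi and 3.73 in pho2 (limma adjusted p = 8.59e-07 and 9.52e-08). Its root values were 59.6, 51.6 and 53.4 in gi root and 34.7, 43.1 and 73.5 in pho2 root, against 240.0, 319 and 246 in WT root.

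LOC4329900, bright in every group, had 1006, 993 and 1059.8 in gi shoot and 1099.6, 977 and 1039 in pho2 shoot, against 4716, 4442 and 4412 in WT shoot. It fell by nearly the same amount in each mutant (in gi shoot log2 change -2.13, SE 0.078, limma adjusted p = 1.29e-08, in pho2 shoot log2 change -2.11, SE 0.078, limma adjusted p = 1.47e-08). LOC4330867 had 262, 343 and 1020.1 in gi shoot and 396, 80.1 and 266 in pho2 shoot, against 2924, 3631 and 2846 in WT shoot, and fell by 2.74 in gi and 3.81 in pho2 (limma adjusted p = 0.00293 and 0.000163). For this gene replicate 3 stood above the other gi shoot arrays. LOC4329640 fell by 2.53 in gi shoot and 2.81 in pho2 shoot (limma adjusted p = 0.000719 and 0.000165), LOC4337885 by 1.73 and 1.39 (0.000177 and 0.000378) and Os.45926.1.S1_s_at by 4.37 and 3.11 (7.41e-05 and 0.000363), in the same order.

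Unequal falls were seen in both directions. LOC4324459 had 5555, 5458 and 9143 in gi shoot and 3214, 1449 and 2358 in pho2 shoot, against 19308, 20363 and 20707 in WT shoot. It fell by 1.62 in gi and 3.17 in pho2 (limma adjusted p = 0.000824 and 3.92e-06), and pho2 lay below gi (log2 change -1.55, SE 0.25, limma adjusted p = 0.00115). LOC4343600 was lower in gi shoot (2.48 below WT, limma adjusted p = 7.4e-05) than in pho2 shoot (1.04 below WT, limma adjusted p = 0.0109, 0.00286 to 0.0572 over its alternatives, with 0.0572 without WT shoot replicate 3), and pho2 lay above gi (log2 change 1.44, SE 0.26, limma adjusted p = 0.00261). GLT2 was far brighter in shoot than in root. It had 4552, 4090.0 and 6219.6 in gi shoot and 1336, 1572 and 1108 in pho2 shoot, against 7582, 5865 and 6724 in WT shoot. It fell in pho2 shoot (log2 change -2.32, SE 0.16, limma adjusted p = 1.71e-06), was not called in gi shoot (log2 change -0.45, SE 0.16, limma adjusted p = 0.0723), and was lower in pho2 shoot than in gi shoot (log2 change -1.87, SE 0.16, limma adjusted p = 1.54e-05). LOC4344545, in contrast, fell in gi shoot (log2 change -1.67, SE 0.27, limma adjusted p = 0.00113), with 484, 465 and 716 in gi shoot and 3985, 1585 and 3054 in pho2 shoot, against 1713, 1939.6 and 1656 in WT shoot, and was not called in pho2 shoot (log2 change 0.60, SE 0.27, limma adjusted p = 0.121).

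A further group was low in mutant roots and high in pho2 shoot. Os.49030.1.A1_s_at had 2595, 2186 and 2719 in pho2 shoot, against 22.1, 3.03 and 17.6 in WT shoot, and rose by 6.43 on the log2 scale (limma adjusted p = 0.000237). Its gi shoot arrays, at 5.09, 30.5 and 641, were uneven, with replicate 3 alone high, and it was not called there. STLP3 had 29.9, 32.3 and 8.78 in gi shoot and 813, 364 and 587 in pho2 shoot, against 11.5, 18.5 and 12.1 in WT shoot, and rose in pho2 shoot (log2 change 4.26, SE 0.37, limma adjusted p = 7.77e-06). Pir7b had 134, 90.4 and 402 in gi shoot and 1689, 294 and 1469 in pho2 shoot, against 65.7, 74.6 and 103 in WT shoot, and rose in pho2 shoot (log2 change 3.27, SE 0.60, limma adjusted p = 0.00141). For both genes all pho2 shoot arrays lay above all WT shoot arrays, the reverse of their order in root. Os.14539.1.S1_at, dim in pho2 root, had 363, 281 and 384 in pho2 shoot, against 3.93, 1.75 and 1.15 in WT shoot (log2 change 4.29, SE 0.39, limma adjusted p = 1.02e-05). Os.50399.1.S1_at had 1573, 667 and 1322 in pho2 shoot, against 62.96, 23.02 and 27.7 in WT shoot (log2 change 4.47, SE 0.36, limma adjusted p = 4.85e-06). LOC4344505 had 551, 279.5 and 371 in pho2 shoot, against 11.97, 8.48 and 9.57 in WT shoot (log2 change 3.95, SE 0.34, limma adjusted p = 8e-06).

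The same order was shown by LOC4331476, LOC9271885 and LOC4352329, which rose in pho2 shoot by 2.59, 2.50 and 2.19 on the log2 scale (limma adjusted p = 2.29e-05, 5.57e-05 and 0.000118). For LOC4331476 this holds for its member alone. Its other probe set, with a WT root mean of 335, differed from WT by -0.10 in gi root and 0.02 in pho2 root. LOC4352329 was bright, with 3492, 2014 and 2851 in pho2 shoot, against 519, 599 and 637 in WT shoot. LOC4324554, LOC4324398 and NSHB1 (by Os.12191.1.S1_x_at) rose by 0.90, 0.61 and 1.73 there (limma adjusted p = 0.0005, 0.00477 and 0.00222). The NSHB1 rise was not shared by Os.12191.1.S1_s_at, whose log2 change in pho2 shoot was 0.05 (limma adjusted p = 0.965), nor by NSHB2, at -0.22 (0.879). Probe sets that read the haemoglobin genes thus differ in shoot.

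Members called higher in gi shoot were 4. LOC4335515 had 197, 162 and 1099 in gi shoot and 1249.5, 595 and 931 in pho2 shoot, against 41.9, 19.7 and 6.89 in WT shoot, and rose in gi shoot (log2 change 3.27, SE 0.59, limma adjusted p = 0.00236), as well as in pho2 shoot (log2 change 4.64, SE 0.59, limma adjusted p = 0.000113). Os.14210.1.S1_at, whose root deviations followed those of LOC4335515 (r = 0.99, both with WT replicate 2 high), had 263, 333 and 53.2 in gi shoot and 271, 267 and 426 in pho2 shoot, against 11.6, 20.2 and 15.6 in WT shoot, and rose by 2.58 in gi and 3.38 in pho2 (limma adjusted p = 0.00344 and 0.000297). In both, each mutant shoot array exceeded each WT shoot array. Os.26436.1.S1_at rose by 1.12 in gi shoot and 0.83 in pho2 shoot (limma adjusted p = 0.00114 and 0.00425). The dim probe set of PHT1;1 had 798, 788 and 504 in gi shoot and 241, 259 and 292 in pho2 shoot, against 189, 329 and 186 in WT shoot, and rose in gi shoot (log2 change 1.52, SE 0.23, limma adjusted p = 0.000785) but was not called in pho2 shoot (log2 change 0.20, SE 0.23, limma adjusted p = 0.592). It was lower in pho2 shoot than in gi shoot (log2 change -1.32, SE 0.23, limma adjusted p = 0.0019). The shoot signal of the bright PHT1;1 probe set, which went the other way in root, is not given here. These shoot results therefore belong to the dim probe set and do not speak for the gene.

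Between the mutants, pho2 shoot was called lower than gi shoot for 8 members (5.1%, against 9.21% of all tested) and higher for 15 (9.55%, against 9.76%). Here too the untested members count in the first shares alone. With no filter, 7 were lower (4.46%, against 4.77% of all probe sets) and 14 were higher (8.92%, against 5.07%). Leaving out gi shoot replicate 1 gave 5 lower, and leaving out gi shoot replicate 3 gave 23 higher. Of those at least 4-fold apart, 9 were higher in pho2 shoot (5.73%, against 0.798%) and 0 were lower (against 0.247%), also at an unadjusted p under 0.05 in limma. LOC4344505 (log2 change 4.02, SE 0.34, limma adjusted p = 1.45e-05), STLP3 (log2 change 3.92, SE 0.37, limma adjusted p = 3.15e-05) and Os.50399.1.S1_at (log2 change 3.91, SE 0.36, limma adjusted p = 2.66e-05) were among the 9.

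Many named genes of the set were dim in shoot. ADF9, ADF6, ILL3, GLU6, BU1 and CSLF2 were under the filter on dim probe sets, with WT shoot means of 40.4, 5.17, 8.09, 27.7, 4.81 and 26.4 units. ADF1, PPDK2, GA20ox2 and eIF-4G were tested and not called in gi shoot (limma adjusted p = 0.719, 0.192, 0.849 and 0.88) or pho2 shoot (0.0668, 0.793, 0.161 and 0.372). GA20ox2 had 139.9, 182 and 259.9 in gi shoot and 133, 102 and 125 in pho2 shoot, against 142, 211 and 179 in WT shoot. Its gi shoot arrays overlap WT, while its pho2 shoot arrays lie just below WT without a call.

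Other genes of the named members' pathways were counted in the root fit of limma. Calls in the root fit made up 2.28% of the 34355 probe sets tested in gi root (1.17% higher, 1.11% lower) and 15.8% in pho2 root (7.96% higher, 7.87% lower). Of 18 genes of nitrogen uptake and assimilation other than GLT2, 0 were called in gi root (at an unadjusted p under 0.05, 1 higher and 3 lower) and 4 were lower in pho2 root, where 0 were higher (1 unadjusted). Among 17 tested genes of Pi transport and the Pi starvation response other than PHT1;1, 0 were called in gi root (0 higher and 3 lower unadjusted), and 6 were higher and 1 lower in pho2 root. Of 53 tested cell wall genes other than CSLF2, 1 was lower in gi root and 13 were lower in pho2 root, with 0 higher in either (unadjusted, 2 higher in gi root and 5 in pho2 root). The auxin, gibberellin and cytokinin list gave 2 higher and 2 lower of 84 in gi root, and 9 higher and 5 lower in pho2 root, ILL3 and GA20ox2 left out. Transcription factors other than BU1 gave 0 higher (7 unadjusted) and 3 lower of 83 in gi root and 18 higher and 5 lower in pho2 root. Median differences of these 5 lists lay between -0.13 and 0.05 in gi root and between -0.16 and 0.14 in pho2 root. No member was found in the lists for iron acquisition, other ion transporters, aquaporins, peroxidases, jasmonate, abscisic acid, the clock, flowering time, sugar and starch, heat shock or diterpenoid phytoalexins. Lists were matched on gene names, so only the 17 members with a name could be found in any of them. Whether the other members belong to these pathways cannot be told from the lists.

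By gene order, all 76 genes could be placed among the 29427 protein-coding genes of the RefSeq table (assembly ASM3414082v1, used for names and order only), on all 12 chromosomes, and 4 pairs lay within 10 genes of each other. LOC4350579 and LOC4350580 are adjacent. LOC4350580 had 161, 192 and 160.5 in gi root and 136, 58.4 and 103 in pho2 root, against 664, 550.0 and 198 in WT root. LOC4350579 had 61.4, 46.2 and 41.5 in gi root and 43.2, 32.4 and 35.8 in pho2 root, against 149, 107 and 62.2 in WT root. In both, WT replicate 3 was the lowest WT array. PHT1;1 lies 4 genes from LOC4331642, LOC4341934 lies 6 from LOC4341940, and LOC4324554 lies 7 from LOC4324459. The last pair went apart in pho2 shoot, where LOC4324554 rose and LOC4324459 fell, as given above. LOC4324554 was read by Os.15894.1.A2_at, while Os.15894.1.A1_a_at, with the same number in its name, is assigned to LOC4328841. Which gene Os.15894.1.A2_at measures, and so whether this is a pair of neighbours, is therefore uncertain.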

How the data were processed

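Affymetrix rice arrays of 6 groups with 3 arrays each were used. Each deposited value is an unlogged intensity of a probe set on an array. The submitters' processing notes name MAS5, with no version or setting given in the sources used here. From these deposited values log2(intensity + 16) was computed here, and no further normalization was applied. Because of the pseudocount of 16, differences of dim probe sets are understated. Of 57381 probe sets, the 123 controls of the maker were dropped. For each tissue the 9 arrays were fitted by lmFit and eBayes (with a trend) of limma 3.58.1 in R 4.3.3, over the 34355 probe sets whose mean lay at or above the 40th percentile. P-values are two-sided and Benjamini-Hochberg adjusted over all probe sets fitted, and an adjusted p under 0.05 is a call. The number of arrays limits the precision, and no 2 arrays held identical values. The fit was also run on simulated data with independent noise around the mean of each probe set. Such noise lacks the swings that root probe sets shared between arrays, so that run gives no assurance about them.

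The members and the gene lists were chosen with earlier results of these data known. Genes named are all members with a gene name, the 10 with the lowest mean root difference, the 8 brightest in WT root, up to 8 called in each direction in each mutant shoot by smallest p, those nearest the thresholds, neighbouring pairs and GI. Other probe sets named, and the families and correlations with ADF9, NSHB2 and LOC4335515, were chosen after their values were seen. Gene names come from the platform annotation and a RefSeq table, in which 22436 probe sets had 1 gene. Alternatives were another pseudocount, filter, normalization or centring, all 18 arrays in a single fit, only the arrays compared, array weights, a replicate block and each array left out. Promoter motifs and sequences were not used here.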

Additional observations from a re-analysis of the deposited data

Results flagged for a closer look

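For 20 of the 157 probe sets, every root array of a mutant lay below every WT root array while every shoot array of the same mutant lay above every WT shoot array, and the shoot change was called in limma. This held for 19 in pho2 and 4 in gi, 3 of them in both, and values are given for the 16 that the rule for named genes covers. The root direction was fixed by how the set was chosen, and the difference between tissues was not tested. In pho2 the shoot changes on the log2 scale were 6.43 for Os.49030.1.A1_s_at, 4.64 for LOC4335515, 4.47 for Os.50399.1.S1_at, 4.29 for Os.14539.1.S1_at, 4.26 for STLP3, 3.95 for LOC4344505, 3.38 for Os.14210.1.S1_at and 3.27 for Pir7b. They were 2.59 for LOC4331476, 2.50 for LOC9271885, 2.19 for LOC4352329, 1.73 for NSHB1 (Os.12191.1.S1_x_at), 0.90 for LOC4324554, 0.83 for Os.26436.1.S1_at and 0.61 for LOC4324398. In gi they were 3.27 for LOC4335515, 2.58 for Os.14210.1.S1_at, 1.52 for the dim probe set of PHT1;1 and 1.12 for Os.26436.1.S1_at. For all probe sets, the share with all shoot arrays above WT was 15.2% in pho2 and 12.5% in gi. For those with a WT root signal of at least 100 units it was 25.1% in pho2 and 17.9% in gi. These shares ask for no call, so they are not on the same base as the counts of 19 and 4. Called higher, with no condition on overlap, were 14.4% of all probe sets tested in pho2 shoot and 8.98% in gi shoot. The share that meets both conditions was not worked out.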

How the results depend on the processing

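The number of members moved with the rule: 168 with a pseudocount of 1, 116 with 64, 169 after quantile normalization, 202 after median centring, 108 with a difference of at least 1.0, 119 with a WT root signal of at least 200, 199 without the rule on overlap and 151 to 208 with 1 array left out. Members called lower in gi shoot numbered 12 to 21 with 1 array left out, members called higher 4 to 6, and 7 with all 18 arrays in a single fit. In pho2 shoot those called lower numbered 14 to 18 and those called higher 18 to 21. For pho2 shoot against gi shoot they numbered 5 to 8 lower, with 5 without gi shoot replicate 1, and 11 to 23 higher, with 23 without gi shoot replicate 3. The probe sets called in gi root numbered 313 to 560 (368 without gi root replicate 2, 313 without WT root replicate 1, 468 without WT root replicate 3), against 782 with all arrays. The probe sets called in pho2 root numbered 3385 to 4139 (3416 without pho2 root replicate 1, 3385 without WT root replicate 1, 3459 without WT root replicate 2), against 5438. The cause was not tested, beyond fewer arrays. Median centring moved all genes by -0.10 in gi root and gi shoot, and the share of calls that were higher became 33.4% in gi root (51.3% as deposited), 37.8% in pho2 root (50.3%) and 40.5% in gi shoot (51.2%). Replicate numbers did not pair the arrays (correlations of deviations from -0.112 to 0.109). With a replicate block, members called were 17 lower and 6 higher in gi shoot, 17 lower and 21 higher in pho2 shoot, and 7 lower and 17 higher in pho2 against gi shoot, with 649 calls in gi root and 4778 in pho2 root. Of 42 called results of named members, 40 kept their call in every alternative, 2 lost it in at least 1 (LOC4326093 in gi shoot, LOC4343600 in pho2 shoot) and 0 reversed, and 9 of 42 uncalled ones were called in some alternative. Many of these members were named for having the smallest p in the same shoot fit. Their calls are thus the hardest to lose, and the count of 40 does not speak for the weaker calls of other members. Signal near background limits what the shoot arrays can show, since 63 of the members were too dim for the fit.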
